A study of Homo sapiens with 6 samples.

Results

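The spliceosome and splicing factor families described here are the 79 genes, of 12829 in the deposited table, whose symbols start with SRSF, HNRNP, SNRP, SF3A, SF3B, PRPF or LSM. They were measured by RNA sequencing in HaCaT cells, an immortal, aneuploid line of human skin keratinocytes. There were 3 libraries of cells with a short hairpin RNA against IQGAP2, and 3 libraries of normal control cells whose genotype is labelled WT. Both groups came from the same line, and the labels state for the control no hairpin and for the knockdown neither the number of clones nor the time after delivery. IQGAP2 encodes a scaffold that binds calmodulin, actin and small GTPases.

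Introns are removed by the spliceosome, which is built on each intron from small nuclear ribonucleoproteins (snRNPs). The U1, U2, U4 and U5 snRNPs each carry a ring of Sm proteins, whereas the U6 snRNP carries a ring of LSM (like-Sm) proteins. U1 pairs with the 5′ splice site and U2, with the SF3a and SF3b complexes, with the branch point, after which the U4/U6.U5 tri-snRNP, to which several PRPF proteins belong, joins. SR proteins and hnRNPs bind the transcript itself and set which splice sites are used, and SR proteins often favour an exon where hnRNPs often oppose it. In keratinocytes, as in other dividing cells, most of these proteins are abundant.

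By prefix, the 79 genes comprised 11 SR proteins (SRSF), 21 hnRNPs, 12 snRNP core genes (SNRP), 9 SF3 genes, 13 PRPF genes and 13 LSM genes. Levels are given as FPKM, fragments per kilobase of transcript model and per unit of depth. Changes are log2 differences of log2(FPKM + 1), knockdown minus control, which understate the change of genes near or below 1 FPKM. A change was called where the limma p-value, adjusted by Benjamini-Hochberg over the 11214 genes that averaged 0.5 FPKM or more, was under 0.05. Only SNRPN failed this filter, so 78 of the 79 genes were tested.

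IQGAP2 itself averaged 0.0235 ± 0.0081 FPKM in knockdown libraries and 0.196 ± 0.0055 FPKM in control libraries (SD, n = 3 each), from 2, 4 and 2 reads in knockdown libraries against 24, 22 and 21 reads in control libraries, or 12.0% of the control level. With an exact permutation test, two-sided, p was 0.1, the smallest that 3 against 3 libraries can give. Read totals recovered from the table were 12901037 to 15360759 in knockdown libraries and 13957447 to 15122470 in control libraries. All 8 keratinocyte markers were present, at means of 52.4 to 2575 FPKM over both groups, and of the markers of fibroblasts, melanocytes, endothelial and immune cells the 8 that had a row were at 2.21 FPKM or less. Knockdown replicate 2 stood apart from its group: its log2 values correlated with those of knockdown replicates 1 and 3 at 0.9931 and 0.9936, whereas those 2 libraries correlated at 0.9968. Values without it are given where they bear on a result.

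The families with the largest falls were those of the snRNP core and SF3, and their promoters are the sequences shown here. Of the 79 genes 67 had a RefSeq promoter window (GRCh38.p14), which runs from 250 bases before to 50 bases after an annotated start. These windows were searched on both strands for 7 motifs, namely CCGGAAG (a core that ETS factors bind), GGGCGG (bound by SP1), CCAAT (the site of the factor NF-Y), TATAAA (the TATA box), CACGTG (an E-box) and the full-length NRF1 and YY1 motifs, each of which stood in the windows of 1 gene of the 67. A gene counted as holding a motif where any of its windows did, and 50 of the 67 had a single window. CCGGAAG was singled out after the counts had been seen. It stood in the windows of 7 of 11 snRNP core genes and 6 of 8 SF3 genes, but of 2 of 10 SR protein genes, 3 of 19 hnRNP genes, 2 of 9 PRPF genes and 2 of 10 LSM genes. It was held by 23.4% of the 9111 genes tested that had a window and by 12.2% of all 27305 genes with one. Split by call, it stood in 17 of 29 members that fell and in 1 of 15 that rose. For no motif was the share counted among all genes that fell or rose, so this split has no background of its own. Most snRNP core and SF3 genes fell, so the split also repeats in part the counts by family. CCAAT also differed between families, with 17 of 19 hnRNP genes, 5 of 11 snRNP core genes and 1 of 8 SF3 genes. It stood in 10 of 29 members that fell, 10 of 15 that rose and 43.6% of genes tested. Other motifs differed too. CACGTG stood in 7 of 19 hnRNP genes, 1 of 8 SF3 genes and none of the other families, against 12.6% of genes tested. GGGCGG ran from 4 of 10 SR protein genes to 16 of 19 hnRNP genes, against 78.0% of genes tested. These are matches of letters and not binding sites, and a start listed by RefSeq need not be the one used in HaCaT cells. To show what such windows look like, the 250 bases before the start are given 5′ to 3′ along the gene for 3 genes that fell and for SNRPD3, the Sm gene that did not pass, from the most upstream window of each gene, with CCGGAAG or its reverse complement CTTCCGG in capitals. They are those of SNRPD2 (chr19:45692317-45692566, minus strand), SNRPB (chr20:2470790-2471039, minus strand), SF3B6 (chr2:24076327-24076576, minus strand) and SNRPD3 (chr22:24555400-24555649, plus strand).
SNRPD2: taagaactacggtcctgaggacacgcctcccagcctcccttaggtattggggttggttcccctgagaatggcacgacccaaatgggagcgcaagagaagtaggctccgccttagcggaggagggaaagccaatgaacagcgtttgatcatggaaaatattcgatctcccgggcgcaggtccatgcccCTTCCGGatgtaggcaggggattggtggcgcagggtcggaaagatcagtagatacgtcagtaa
SNRPB: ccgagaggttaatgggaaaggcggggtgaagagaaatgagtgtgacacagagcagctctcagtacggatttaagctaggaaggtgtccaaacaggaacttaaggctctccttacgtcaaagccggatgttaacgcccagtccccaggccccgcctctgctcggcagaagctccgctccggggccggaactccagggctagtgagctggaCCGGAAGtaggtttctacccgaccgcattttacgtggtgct
SF3B6: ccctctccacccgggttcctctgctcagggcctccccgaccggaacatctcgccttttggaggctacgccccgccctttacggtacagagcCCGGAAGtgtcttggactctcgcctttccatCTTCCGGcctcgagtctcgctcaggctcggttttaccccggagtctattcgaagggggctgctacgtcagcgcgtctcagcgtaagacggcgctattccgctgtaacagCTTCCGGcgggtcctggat
SNRPD3: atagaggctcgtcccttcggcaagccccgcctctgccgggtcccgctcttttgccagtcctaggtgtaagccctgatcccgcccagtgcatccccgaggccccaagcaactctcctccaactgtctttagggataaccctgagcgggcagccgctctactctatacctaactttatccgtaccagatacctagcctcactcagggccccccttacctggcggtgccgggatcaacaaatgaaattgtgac
SNRPD2 and SNRPB held 1 match each, at 63 and 41 bases before the start, SF3B6 held 3 matches, and the 250 bases of SNRPD3 held none. They do not stand for all genes that fell, since SNRPF, SNRPA and SF3B5 fell and held no CCGGAAG in their windows. SNRPD2 has 3 windows and SNRPD3 has 2, and the SNRPD2 stretch lies within the span that GENCODE v29 gives for the gene. The stretches of SNRPB, SF3B6 and SNRPD3 also run in part into their genes, whose 5′ ends lie at 2470853, 24076443 and 24555503. The SNRPB match and the SF3B6 match 19 bases before the start thus lie within the annotated genes.

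Across all 78 genes tested, 52 changed: 18 rose and 34 fell, while 26 did not pass. The background for this count was high, since 57.4% of all genes tested passed, 29.5% higher in knockdown and 27.8% lower. Against it, 66.7% of the splicing factor genes passed, 23.1% higher and 43.6% lower in knockdown. Most changes were small, with 6 genes over 1.5-fold on the log2(FPKM + 1) scale and 8 by the ratio of mean FPKM. Values of the 2 groups did not overlap for 62 of the 78 genes, 22 with knockdown above control and 40 with knockdown below, where 65.1% of all genes tested did not overlap (33.7% above and 31.4% below).

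The families differed in direction, as the plot of changes by family shows. No gene of the snRNP core rose and 10 fell, and in SF3 1 rose and 6 fell. In the LSM family 2 rose and 4 fell, and among PRPF genes 3 rose and 3 fell. Of the hnRNPs 8 rose and 6 fell, and of the SR proteins 4 rose and 5 fell. Median log2 changes were -0.46 in the snRNP core, -0.20 in SF3, -0.07 in SR proteins, -0.03 in hnRNPs, -0.00 in LSM and 0.03 in PRPF, beside 0.01 over all genes tested. Differences between families were not tested.

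**Figure D1:**
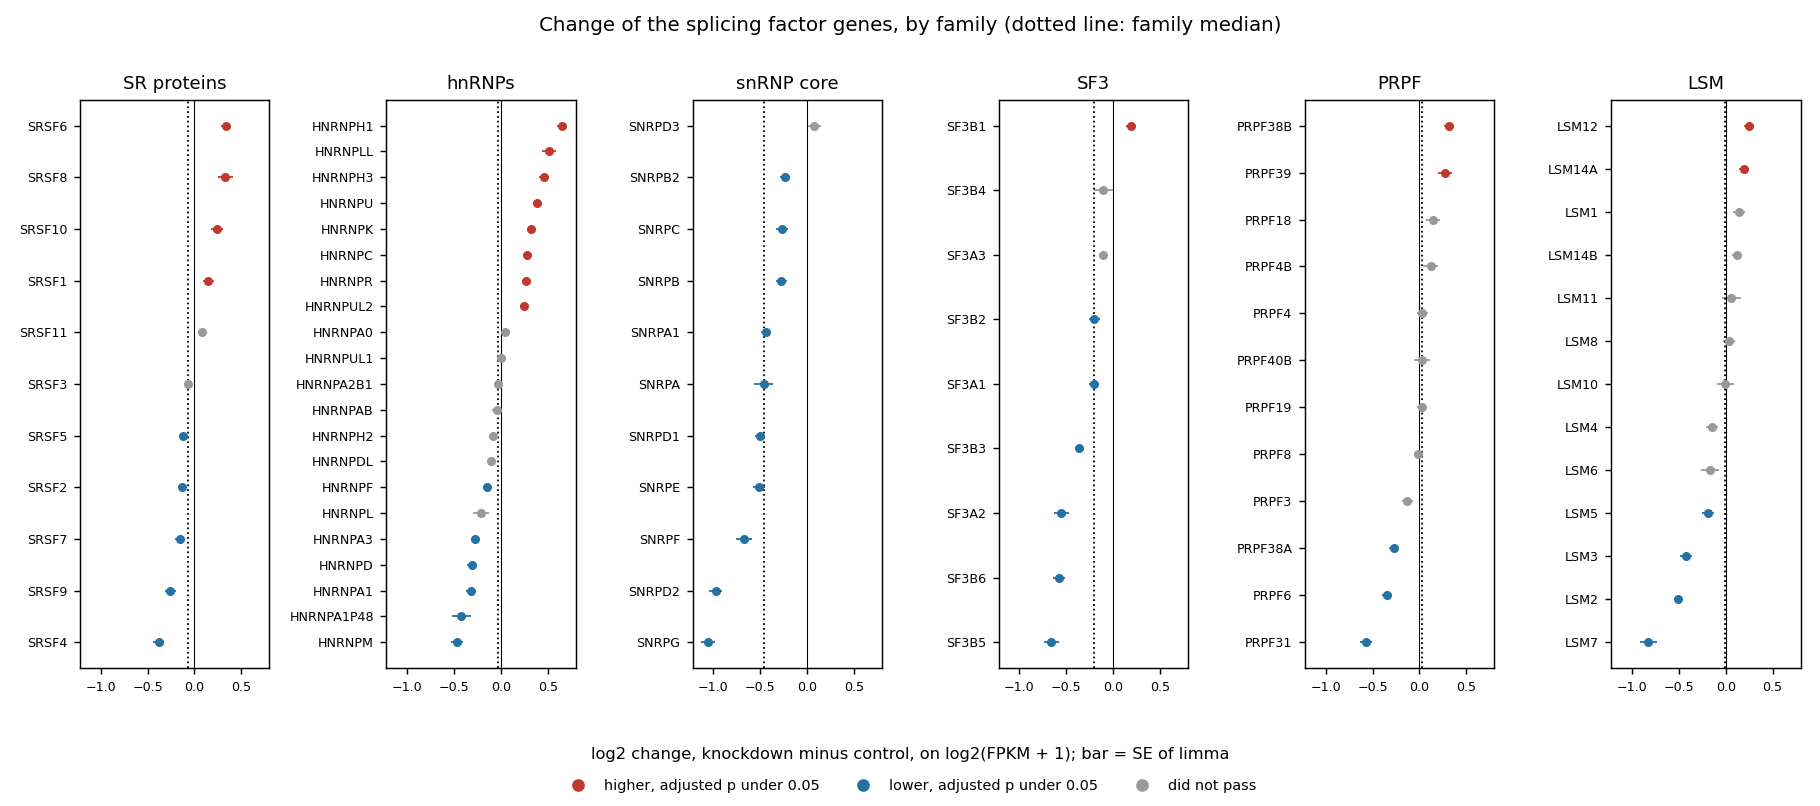
Log2 change of the genes, knockdown minus control on log2(FPKM + 1), with 1 panel per family and a bar for the standard error of each change. Genes of the snRNP core lie left of 0 except SNRPD3, while hnRNPs and SR proteins spread to both sides.

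FPKM is scaled by the reads of a library and by gene length, so its sum can differ between libraries. Values summed to 248082, 234624 and 247921 FPKM in knockdown libraries, against 271372, 274709 and 273759 FPKM in control libraries. Since gene length enters these sums, scaling to a common sum is not independent of the length trend described below. With every library scaled to a common sum, the median over all genes tested moved to 0.14, and 30 splicing factor genes rose and 21 fell, in place of 18 and 34. These are 38.5% and 26.9% of the 78 genes, where 43.4% of all genes tested rose and 16.4% fell under the same scaling. By family, 0 rose and 7 fell in the snRNP core, 1 and 4 in SF3, 4 and 3 in LSM, 8 and 2 in PRPF, 12 and 4 in hnRNPs and 5 and 1 in SR proteins. Calls of 13 genes that fell were lost in this way (HNRNPA3, HNRNPF, LSM5, PRPF38A, SF3A1, SF3B2, SNRPB, SNRPB2, SNRPC, SRSF2, SRSF5, SRSF7 and SRSF9), and the sign turned for HNRNPF, SRSF2, SRSF5 and SRSF7. Calls were gained for 12 other genes, all higher (HNRNPA0, HNRNPA2B1, HNRNPAB, HNRNPUL1, LSM1, LSM14B, PRPF18, PRPF19, PRPF4, PRPF4B, PRPF8 and SRSF11). Relative to the median of all genes under that scaling, the family medians were -0.44 in the snRNP core, -0.19 in SF3, -0.05 in SR proteins, -0.01 in hnRNPs, 0.01 in LSM and 0.05 in PRPF. A fall of a transcript per cell and a smaller share of cells that express it cannot be told apart in these bulk libraries.

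Gene length and 1 library moved with the family changes. Split by gene length, the median change over all genes ran from -0.19 in the shortest decile to 0.17 in the longest, and 14 of the 78 splicing factor genes lay in the shortest decile, with a median change of -0.46. Median gene lengths implied by the table were 2480.5 bases in the snRNP core and 6492 bases in hnRNPs, against 5186 bases over all genes tested. With the trend on length removed, 20 splicing factor genes rose and 33 fell, where 28.5% of all genes tested rose and 28.1% fell. Of the 52 calls 42 were kept, 10 were lost (HNRNPA1P48, HNRNPF, SF3B1, SNRPB, SNRPB2, SNRPC, SRSF1, SRSF2, SRSF7 and SRSF10) and 11 others were gained (HNRNPA2B1, HNRNPAB, HNRNPDL, HNRNPL, LSM1, LSM14B, PRPF18, PRPF19, PRPF3, PRPF8 and SRSF3). By family, 0 rose and 7 fell in the snRNP core, 0 and 6 in SF3, 4 and 4 in LSM, 5 and 5 in PRPF, 9 and 7 in hnRNPs and 2 and 4 in SR proteins, and the family medians were -0.34 in the snRNP core, -0.33 in SF3, -0.05 in hnRNPs, -0.03 in SR proteins, -0.03 in LSM and 0.02 in PRPF. Pearson's correlation of change with log2 length was 0.519 across the 78 genes and 0.256 across all 11214; genes share libraries and are not independent, so this is a description. The library was knockdown replicate 2, which was the lowest of the 3 knockdown libraries for 10 of 11 snRNP core genes, 6 of 9 SF3 genes and 7 of 13 LSM genes, where it was the lowest for 35.5% of all genes tested. Without it, the medians were -0.42 in the snRNP core and -0.19 in SF3, and 50 of the 52 calls were kept. What share of the changes goes with length was not tested beyond this.

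**Figure D2:**
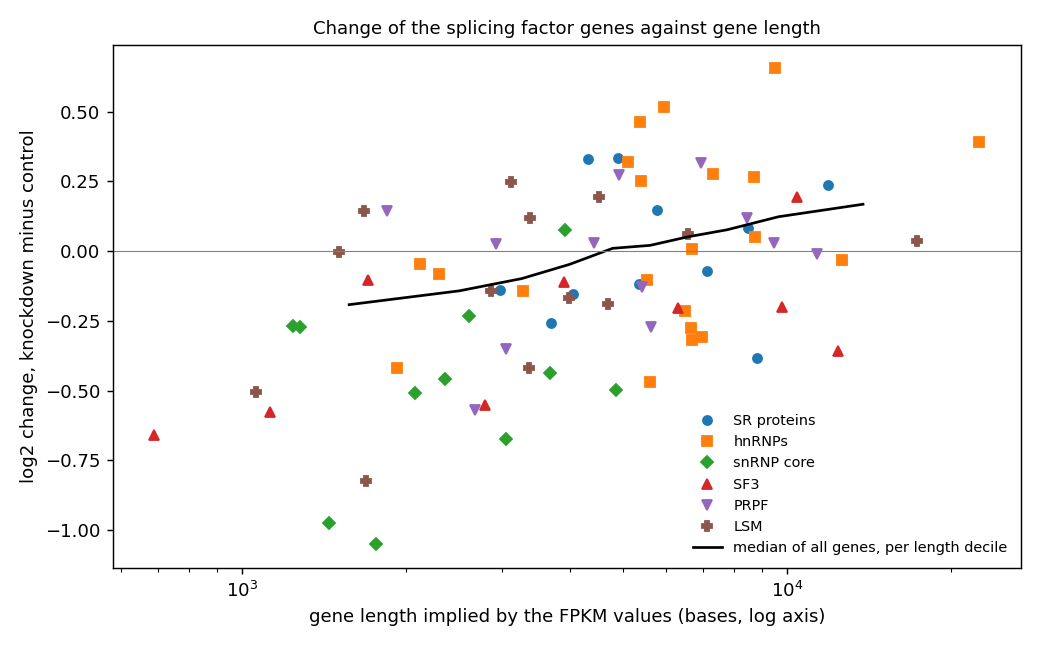
Log2 change against the gene length implied by the table (bases, log axis) for the splicing factor genes, coloured by family, with a line for the median of all genes tested in each decile of length. Genes of the snRNP core other than SNRPD3 lie below the median of their decile, and long hnRNP genes lie on both sides of it.

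The 7 Sm proteins, which form the ring around U1, U2, U4 and U5 RNA, fell together except SNRPD3. Their summed level was 312, 274 and 309.6 FPKM in knockdown libraries, against 436, 429.96 and 427 FPKM in control libraries, so that every knockdown library lay below every control library. SNRPG had 15.8, 12.8 and 15.3 FPKM in knockdown libraries, against 29.7, 31.7 and 32.4 FPKM in control libraries. The groups lay far apart, with a log2 change of -1.05 (SE 0.0749, adjusted p = 3.32e-06), the largest of the 78 genes. SNRPD2 had 56.4, 47.8 and 58.3 FPKM in knockdown libraries, against 107, 107 and 107 FPKM in control libraries, a log2 change of -0.97 (SE 0.0678, adjusted p = 2.83e-06). SNRPD1, its partner in the subunit that opens ring assembly, had 17.7, 16.9 and 18.2 FPKM in knockdown libraries, against 25.4, 26.2 and 24.1 FPKM in control libraries, a log2 change of -0.50 (SE 0.0516, adjusted p = 3.36e-05). The control libraries agreed closely for SNRPD2, and for all 3 of these genes each knockdown library lay below each control library.

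SNRPE, SNRPF and SNRPG assemble as a trimer, and all 3 fell. SNRPF had 19.6, 15.3 and 18.5 FPKM in knockdown libraries, against 26.4, 30.7 and 29.4 FPKM in control libraries, a log2 change of -0.67 (SE 0.0872, adjusted p = 0.00013). SNRPE had 25.3, 23.3 and 27.2 FPKM in knockdown libraries, against 37.3, 37.4 and 34.3 FPKM in control libraries, a log2 change of -0.51 (SE 0.0624, adjusted p = 9.29e-05). The groups did not overlap for either gene, and knockdown replicate 2 was the lowest library in both. SNRPB, which encodes SmB/B′ and is the most abundant of the snRNP core, had 171, 151 and 167 FPKM in knockdown libraries, against 204, 192 and 195 FPKM in control libraries, a log2 change of -0.27 (SE 0.0567, adjusted p = 0.00232). Its fall was small, at -0.11 under the common sum and -0.06 with the length trend removed, and passed under neither. SNRPD3 had 5.92, 6.55 and 5.23 FPKM in knockdown libraries, against 5.77, 5.35 and 5.47 FPKM in control libraries, with overlapping groups and a log2 change of 0.08 (SE 0.0786, adjusted p = 0.432). Within a library, the ratio of SNRPD2 to SNRPD3 was 9.54, 7.29 and 11.2 in knockdown libraries, against 18.6, 19.9 and 19.5 in control libraries, so that these 2 genes of the same ring changed unequally. SNRPD3 shares exon sequence with GGT1 and GUCD1 in GENCODE v29, and 20 annotated pseudogenes carry the name of SNRPG and 9 that of SNRPE, so the reads of these genes may have been divided.

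Proteins specific to U1 and U2 fell as well. The U1 proteins are SNRPA (U1-A), which binds a stem-loop of U1 RNA, and SNRPC (U1-C), which steadies pairing with the 5′ splice site. SNRPA averaged 30.1 ± 4.60 FPKM in knockdown libraries and 41.6 ± 3.88 FPKM in control libraries (SD, n = 3 each; log2 change -0.46, adjusted p = 0.00342) and SNRPC averaged 76.7 ± 6.62 FPKM in knockdown libraries and 92.3 ± 2.77 FPKM in control libraries (log2 change -0.27, adjusted p = 0.0045). SNRPA1 (U2-A′) and SNRPB2 (U2-B″) bind each other and a stem-loop of U2 RNA. SNRPA1 averaged 21.6 ± 0.558 FPKM in knockdown libraries and 29.5 ± 1.65 FPKM in control libraries (log2 change -0.44, adjusted p = 9.06e-05) and SNRPB2 averaged 30.9 ± 1.81 FPKM in knockdown libraries and 36.5 ± 0.602 FPKM in control libraries (log2 change -0.23, adjusted p = 0.00338). Groups did not overlap for these 4 genes, although SNRPC and SNRPB2 passed neither under the common sum nor with the length trend removed. SNRPN, a tissue-restricted relative of SNRPB, stood at 0.181, 0.246 and 0.211 FPKM in knockdown libraries, against 0.443, 0.540 and 0.271 FPKM in control libraries. It was tested only where no filter on low values was used, and was called lower there.

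**Figure D3:**
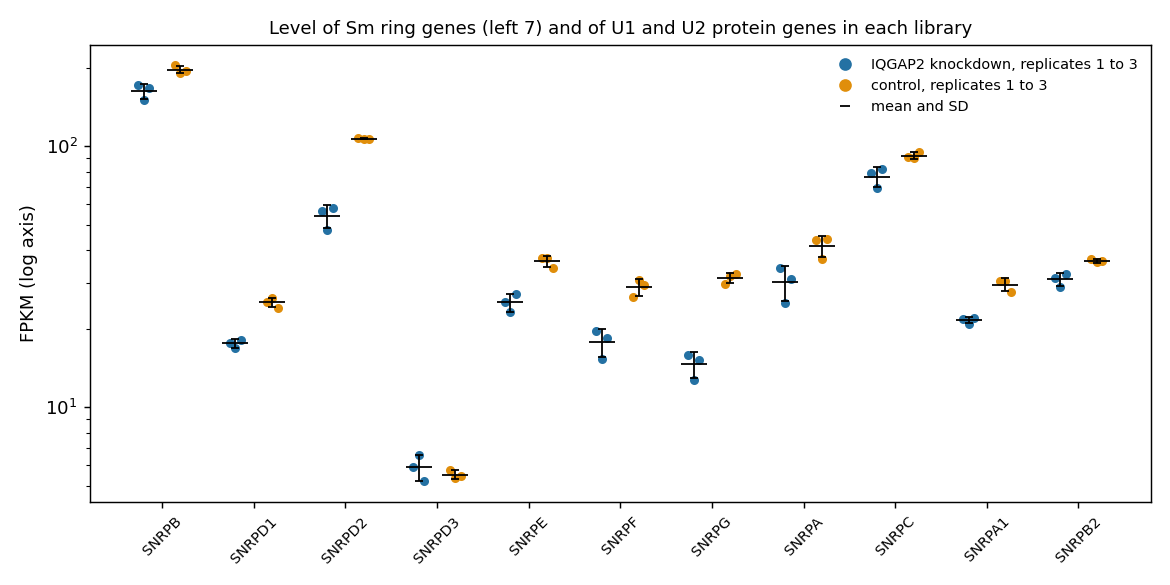
FPKM (log axis) in each library for the 7 Sm ring genes and the genes of U1 and U2 proteins, knockdown left of control for each gene, with mean and SD. The SNRPG and SNRPD2 points of the knockdown libraries lie wholly below those of the control libraries, while those of SNRPD3 overlap.

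SF3a and SF3b are the parts of the U2 snRNP that hold the branch point. The 9 genes named SF3A or SF3B summed to 405, 353 and 401 FPKM in knockdown libraries, against 496, 501 and 498 FPKM in control libraries. Of the 3 subunits of SF3a, SF3A2 had 23.1, 18.04 and 22.1 FPKM in knockdown libraries, against 29.8, 31.1 and 32.8 FPKM in control libraries, a log2 change of -0.55 (SE 0.0823, adjusted p = 0.000319). SF3A1 fell less (log2 change -0.20, adjusted p = 0.00673) and SF3A3 did not pass (log2 change -0.11, adjusted p = 0.0695; it passed without knockdown replicate 2, at -0.12). Of the SF3B genes, SF3B5 and SF3B6 fell most. SF3B5 had 84.8, 66.9 and 80.5 FPKM in knockdown libraries, against 119.9, 121 and 126 FPKM in control libraries, a log2 change of -0.66 (SE 0.0775, adjusted p = 7.42e-05). SF3B6 (p14), which contacts the branch-point adenosine, had 90.8, 77.6 and 88.7 FPKM in knockdown libraries, against 132, 126 and 127 FPKM in control libraries, a log2 change of -0.58 (SE 0.0607, adjusted p = 3.71e-05). Knockdown replicate 2 was the lowest library for SF3A2, SF3B5 and SF3B6, and the other knockdown libraries also lay below all control libraries.

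SF3B3, a large scaffold of SF3b, had 17.01, 16.4 and 16.8 FPKM in knockdown libraries, against 21.1, 22.02 and 22.3 FPKM in control libraries, a log2 change of -0.36, adjusted p = 0.000142. SF3B2 had a log2 change of -0.20, adjusted p = 0.0181, and this call was lost without control replicate 2 (-0.19) or control replicate 3 (-0.20). SF3B4 did not pass (log2 change -0.10, adjusted p = 0.391), and its knockdown values of 61.2, 47.0 and 63.1 FPKM overlapped the control values of 59.4, 66.0 and 57.9 FPKM. SF3B1, the largest subunit and the one that clamps the branch-point helix, was the only one of the 9 that rose. It had 38.5, 43.1 and 39.1 FPKM in knockdown libraries, against 35.3, 34.3 and 35.4 FPKM in control libraries, a log2 change of 0.19 (SE 0.0526, adjusted p = 0.00993). With the length trend removed, its change was 0.06 and did not pass. PHF5A, a further SF3b subunit whose symbol lies outside the prefixes, also rose, at 36.5 ± 1.32 FPKM in knockdown libraries and 31.1 ± 3.32 FPKM in control libraries (SD, n = 3 each; log2 change 0.23, adjusted p = 0.019; 0.15 and not passed without control replicate 2). It comes from the list of U2 partners and was singled out after its values were seen. The ratio of SF3B5 to SF3B1 within a library was 2.21, 1.55 and 2.06 in knockdown libraries, against 3.39, 3.52 and 3.56 in control libraries. These 2 genes differ widely in implied length, at 690 and 10421 bases. With the length trend removed, the log2 change was -0.40 for SF3B5, -0.35 for SF3B6 and 0.06 for SF3B1, so part of the gap went with length.

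LSM proteins build 2 rings that share 6 subunits, LSM2 to LSM7. LSM8 completes the nuclear ring on U6 RNA, and LSM1 the cytoplasmic ring that helps remove caps from messenger RNA. None of the shared subunits rose and 4 of the 6 fell, with a median of -0.30. LSM7 had 17.2, 14.8 and 17.96 FPKM in knockdown libraries, against 33.9, 27.2 and 29.7 FPKM in control libraries, a log2 change of -0.82 (SE 0.0871, adjusted p = 3.79e-05). LSM2 had 31.7, 31.4 and 30.4 FPKM in knockdown libraries, against 45.7, 45.1 and 43.02 FPKM in control libraries, a log2 change of -0.51 (SE 0.0453, adjusted p = 1.37e-05). LSM3 had 8.11, 7.06 and 7.24 FPKM in knockdown libraries, against 10.4, 10.2 and 10.3 FPKM in control libraries, a log2 change of -0.42 (SE 0.0622, adjusted p = 0.000304). For these 3 genes the groups did not overlap. LSM5 passed narrowly (log2 change -0.19, adjusted p = 0.032), and leaving out any library but knockdown replicate 3 lost the call, at values of -0.20 to -0.14. LSM6 did not pass (log2 change -0.17, adjusted p = 0.164). LSM4, the most abundant of the family, had 70.6, 59.7 and 69.4 FPKM in knockdown libraries, against 73.6, 72.6 and 73.98 FPKM in control libraries, a log2 change of -0.14 (SE 0.0624, adjusted p = 0.0749). It passed without knockdown replicate 1, at -0.19, and turned to 0.02 under the common sum.

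LSM1 and LSM8, which set where a ring acts, did not pass. LSM1 had 7.99, 7.79 and 7.92 FPKM in knockdown libraries, against 7.63, 6.97 and 6.57 FPKM in control libraries, with no overlap between the groups, and a log2 change of 0.15 (SE 0.0644, adjusted p = 0.0772). It was called higher without control replicate 1 (0.20), under the common sum (0.29) and with the length trend removed (0.34). LSM8 had 2.96, 3.005 and 2.96 FPKM in knockdown libraries, against 2.98, 2.96 and 2.70 FPKM in control libraries, a log2 change of 0.04 (SE 0.0677, adjusted p = 0.675). Within a library, the ratio of LSM8 to LSM1 was 0.370, 0.386 and 0.374 in knockdown libraries, against 0.390, 0.425 and 0.411 in control libraries, lower in every knockdown library than in any control library, for which an exact permutation test cannot go below p = 0.1. The length implied for LSM8 was 2.79 times its merged exon length in GENCODE v29, so its FPKM is low for its reads. LSM10 (log2 change -0.00, adjusted p = 0.985) and LSM11 (log2 change 0.06, adjusted p = 0.639), the LSM proteins of the U7 snRNP that processes histone transcripts, did not pass. Among the LSM proteins outside the rings, LSM12 (log2 change 0.25, adjusted p = 0.00366) and LSM14A (log2 change 0.20, adjusted p = 0.0143) rose, and LSM14A did not pass without control replicate 3 (0.18). LSM14B did not pass (log2 change 0.12, adjusted p = 0.0632). It was called higher under the common sum (0.28), under quantile normalization (0.15) and with the length trend removed (0.20).

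PRPF genes carry the names of yeast splicing mutants and encode unrelated proteins. In the tri-snRNP, PRPF31, which joins U4 and U6 to U5, had 8.001, 6.77 and 7.17 FPKM in knockdown libraries, against 11.1, 11.4 and 11.4 FPKM in control libraries, a log2 change of -0.57 (SE 0.0652, adjusted p = 6.32e-05). PRPF6, a bridge between U5 and U4/U6, had 57.4, 50.8 and 52.2 FPKM in knockdown libraries, against 68.7, 69.1 and 67.1 FPKM in control libraries, a log2 change of -0.35 (SE 0.0525, adjusted p = 0.000327). For both genes each knockdown library lay below each control library. PRPF8, the large U5 protein at the catalytic centre, had 29.6, 31.9 and 30.6 FPKM in knockdown libraries, against 30.02, 31.2 and 31.4 FPKM in control libraries, a log2 change of -0.01 (SE 0.0474, adjusted p = 0.862). Its groups overlapped and its sign depended on the scaling. It was called higher under the common sum (0.15) and lower with the length trend removed (-0.16). PRPF3 (log2 change -0.13, adjusted p = 0.0779) and PRPF4 (log2 change 0.03, adjusted p = 0.675) did not pass.

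PRPF39, a relative of a yeast U1 protein, rose. It averaged 13.6 ± 1.51 FPKM in knockdown libraries and 11.1 ± 0.590 FPKM in control libraries (SD, n = 3 each; log2 change 0.27, adjusted p = 0.0113). PRPF40B, likewise a relative of a yeast U1 protein, at a mean of 0.752 FPKM in knockdown libraries and 0.715 FPKM in control libraries, did not pass. The related pair PRPF38A and PRPF38B moved apart. PRPF38A, which helps activate the spliceosome, fell (log2 change -0.27, adjusted p = 0.00257; -0.12 and not passed under the common sum), and PRPF38B rose (log2 change 0.32, adjusted p = 0.000872). PRPF19, the ubiquitin ligase of the PRP19 complex and the most abundant PRPF gene, had 89.2, 80.3 and 84.98 FPKM in knockdown libraries, against 83.2, 83.6 and 82.8 FPKM in control libraries, a log2 change of 0.03 (SE 0.0483, adjusted p = 0.661). It was called higher under the common sum (0.19) and with the length trend removed (0.13). PRPF18 (log2 change 0.15, adjusted p = 0.124) and PRPF4B (log2 change 0.12, adjusted p = 0.215) did not pass. Both were called higher under the common sum (0.26 and 0.27), and PRPF18 also with the length trend removed (0.33).

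Among the hnRNPs both rises and falls were found. They summed to 1318, 1317 and 1324 FPKM in knockdown libraries, against 1324, 1310.0 and 1308 FPKM in control libraries, which is nearly level on the deposited scaling. As a share of the FPKM summed over all genes of a library, the same sums were 0.531%, 0.561% and 0.534% in knockdown libraries, against 0.488%, 0.477% and 0.478% in control libraries, so that the direction depends on the scaling. Among 21 genes, 8 rose, 6 fell and 7 did not pass. HNRNPH1, which binds runs of G near exons, had 64.96, 72.8 and 70.3 FPKM in knockdown libraries, against 44.6, 43.9 and 42.5 FPKM in control libraries, a log2 change of 0.65 (SE 0.0516, adjusted p = 6.25e-06), the largest rise of the 78 genes. HNRNPH3 also rose (log2 change 0.46, adjusted p = 4.94e-05), whereas HNRNPH2 did not pass (log2 change -0.08, adjusted p = 0.136). HNRNPF, of the same subfamily, fell slightly (log2 change -0.14, adjusted p = 0.0154). Its call was lost without knockdown replicate 1 (-0.13), control replicate 1 (-0.15), control replicate 2 (-0.14) or control replicate 3 (-0.14), and its change was 0.02 under the common sum. The ratio of HNRNPH1 to HNRNPF within a library was 0.497, 0.533 and 0.524 in knockdown libraries, against 0.303, 0.298 and 0.285 in control libraries, without overlap.

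HNRNPLL and HNRNPL are paralogs that bind CA-rich RNA, and in T cells HNRNPLL is known for its control of CD45 splicing. HNRNPLL had 10.2, 12.1 and 10.7 FPKM in knockdown libraries, against 7.23, 7.95 and 6.99 FPKM in control libraries, a log2 change of 0.51 (SE 0.0745, adjusted p = 0.00026). HNRNPL had 11.3, 15.02 and 13.4 FPKM in knockdown libraries, against 14.9, 15.1 and 16.2 FPKM in control libraries, a log2 change of -0.21, adjusted p = 0.0599. It passed without knockdown replicate 2 (-0.30), and that library, at 15.0 FPKM, was the only knockdown library within the range of the control libraries. The ratio of HNRNPLL to HNRNPL was 0.902, 0.808 and 0.798 in knockdown libraries, against 0.486, 0.526 and 0.430 in control libraries. HNRNPLL thus came close to HNRNPL in the knockdown libraries and stayed well below it in the control libraries.

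Of the A-group hnRNPs, which often silence exons, HNRNPA1 and HNRNPA3 fell. HNRNPA1, the most abundant of the 79 genes, had 189, 176 and 182 FPKM in knockdown libraries, against 229, 226 and 228 FPKM in control libraries, a log2 change of -0.32 (SE 0.0456, adjusted p = 0.000238). It has 74 named pseudogene copies, and its reads may have been divided among them. HNRNPA3 averaged 57.9 ± 0.369 FPKM in knockdown libraries and 70.2 ± 1.81 FPKM in control libraries (SD, n = 3 each; log2 change -0.27, adjusted p = 0.000364; -0.11 and not passed under the common sum). HNRNPA2B1 (log2 change -0.03, adjusted p = 0.551) and HNRNPA0 (log2 change 0.05, adjusted p = 0.383) did not pass. Under the common sum both were called higher (0.13 and 0.21), whereas HNRNPA2B1 was called lower with the length trend removed (-0.18). HNRNPA1P48, whose name is that of a pseudogene of HNRNPA1 although GENCODE v29 types it as protein coding, fell at a low level (log2 change -0.42, adjusted p = 0.0069). HNRNPD (AUF1), which binds AU-rich elements of unstable transcripts, averaged 39.4 ± 1.96 FPKM in knockdown libraries and 49.1 ± 0.382 FPKM in control libraries (log2 change -0.31, adjusted p = 0.000402), while its relatives HNRNPDL (log2 change -0.11, adjusted p = 0.0595; -0.12 and passed without knockdown replicate 2) and HNRNPAB (log2 change -0.04, adjusted p = 0.398) did not pass. HNRNPAB was called higher under the common sum (0.12) and with the length trend removed (0.12). HNRNPDL was called lower with the length trend removed (-0.13).

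HNRNPM, which among other roles takes part in exon choice in epithelial and mesenchymal cells, had 38.3, 31.99 and 35.8 FPKM in knockdown libraries, against 49.8, 47.9 and 49.8 FPKM in control libraries, a log2 change of -0.47 (SE 0.0627, adjusted p = 0.000162). HNRNPC, which binds runs of U and covers cryptic exons, rose with 125 ± 0.889 FPKM in knockdown libraries and 103 ± 0.664 FPKM in control libraries (log2 change 0.28, adjusted p = 0.000266). HNRNPK, a protein that binds runs of C and is known to restrain keratinocyte differentiation, had 170.2, 168 and 167 FPKM in knockdown libraries, against 138, 133 and 133 FPKM in control libraries, a log2 change of 0.32, adjusted p = 0.00015. HNRNPU, a protein of the nuclear scaffold, averaged 40.9 ± 0.281 FPKM in knockdown libraries and 30.9 ± 0.557 FPKM in control libraries (log2 change 0.39, adjusted p = 4.22e-05), and its relative HNRNPUL2 also rose (log2 change 0.25, adjusted p = 0.00152), while HNRNPUL1 did not pass (log2 change 0.01, adjusted p = 0.901). HNRNPR rose with 38.3 ± 0.972 FPKM in knockdown libraries and 31.7 ± 0.236 FPKM in control libraries (log2 change 0.26, adjusted p = 0.000533). The spread within a group was small for the hnRNPs, with a median coefficient of variation of 2.54% in knockdown libraries and 2.09% in control libraries, against 7.70% and 4.86% over all genes tested. The hnRNPs also stood at a higher level, with a median of 42.3 FPKM against 7.19 FPKM over all genes tested. SR proteins likewise lay below the values of all genes, at 3.92% and 2.97%, so a small spread was not particular to hnRNPs.

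**Figure D4:**
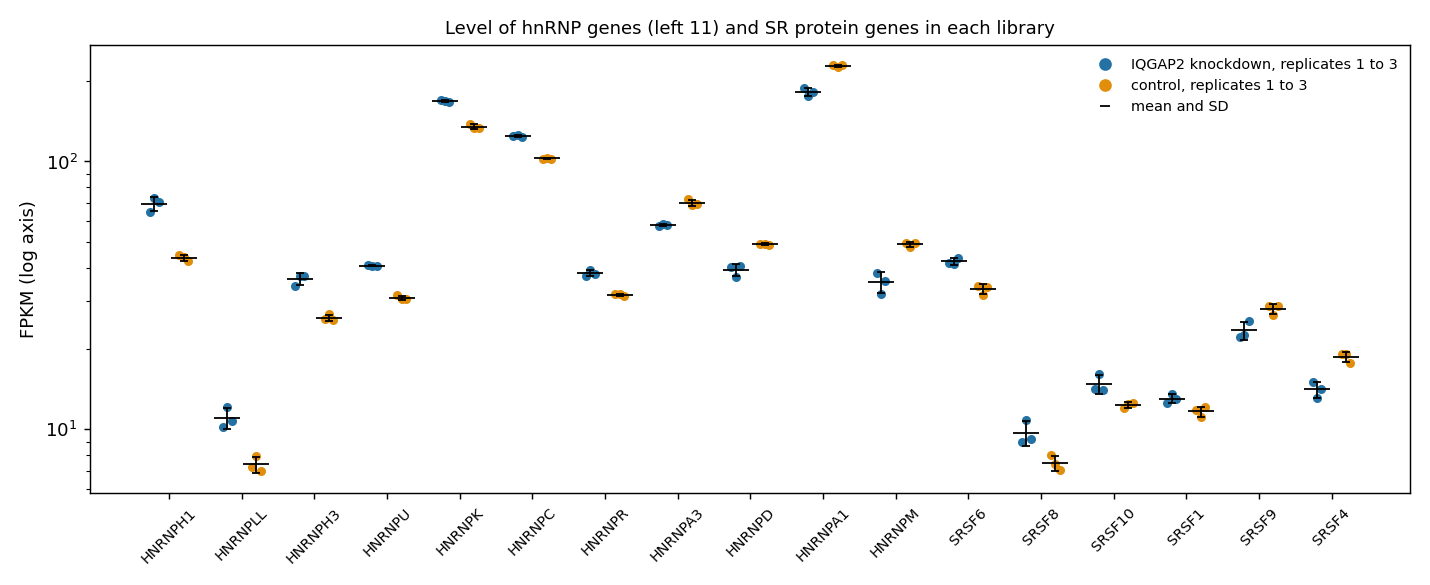
FPKM (log axis) in each library for 11 hnRNP genes and for SR protein genes, knockdown left of control for each gene, with mean and SD. HNRNPH1, HNRNPLL and SRSF6 lie higher in all 3 knockdown libraries, and HNRNPA1, HNRNPM and SRSF4 lie lower.

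SR proteins carry an RNA-binding domain and a tail rich in arginine and serine that is phosphorylated by SRPK and CLK kinases. Their 11 genes summed to 366, 370.00 and 383 FPKM in knockdown libraries, against 389, 379.6 and 389.6 FPKM in control libraries. As a share of the FPKM summed over all genes of a library they ran the other way, at 0.147%, 0.158% and 0.155% in knockdown libraries, against 0.143%, 0.138% and 0.142% in control libraries, so no direction can be given for the family as a whole. SRSF4 fell most, with 15.04, 13.1 and 14.2 FPKM in knockdown libraries, against 19.05, 19.2 and 17.7 FPKM in control libraries, a log2 change of -0.38 (SE 0.0616, adjusted p = 0.000502). SRSF6 rose most, with 41.8, 41.6 and 43.7 FPKM in knockdown libraries, against 34.4, 31.8 and 34.03 FPKM in control libraries, a log2 change of 0.34 (SE 0.0485, adjusted p = 0.00026). These are close relatives within the family, and for both the groups did not overlap. SRSF8 rose, with 8.97, 10.9 and 9.23 FPKM in knockdown libraries, against 8.01, 7.41 and 7.06 FPKM in control libraries, a log2 change of 0.33 (SE 0.0777, adjusted p = 0.00481). SRSF10, a splicing repressor when dephosphorylated, averaged 14.7 ± 1.17 FPKM in knockdown libraries and 12.3 ± 0.285 FPKM in control libraries (SD, n = 3 each; log2 change 0.24, adjusted p = 0.00791), but its change was 0.09 and did not pass with the length trend removed. SRSF9 fell, with 23.4 ± 1.80 FPKM in knockdown libraries and 28.1 ± 1.14 FPKM in control libraries (log2 change -0.26, adjusted p = 0.00467).

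Several SR protein changes were near the limit of what 3 libraries a group resolve. SRSF1 (SF2/ASF), the best known of the family, had 12.5, 13.5 and 13.01 FPKM in knockdown libraries, against 11.8, 11.1 and 12.1 FPKM in control libraries, a log2 change of 0.15 (SE 0.0554, adjusted p = 0.0421). Its call was lost without knockdown replicate 2 (0.12), knockdown replicate 3 (0.15), control replicate 1 (0.16), control replicate 2 (0.12) or control replicate 3 (0.17). SRSF5, the most abundant, had 63.1, 63.5 and 67.7 FPKM in knockdown libraries, against 70.3, 69.2 and 71.5 FPKM in control libraries, a log2 change of -0.12 (SE 0.0452, adjusted p = 0.0459). This call was lost without knockdown replicate 1 (-0.10), control replicate 1 (-0.12), control replicate 2 (-0.13) or control replicate 3 (-0.11). SRSF2 (log2 change -0.14, adjusted p = 0.0185) was not called without control replicate 1 (-0.12) or control replicate 3 (-0.14). SRSF7 (log2 change -0.16, adjusted p = 0.0186) was not called without knockdown replicate 1 (-0.13), control replicate 2 (-0.15) or control replicate 3 (-0.15). Leaving out control replicate 3 left 5 SR proteins called, in place of 9. SRSF3 (log2 change -0.07, adjusted p = 0.179) and SRSF11 (log2 change 0.08, adjusted p = 0.151) did not pass.

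**Figure D5:**
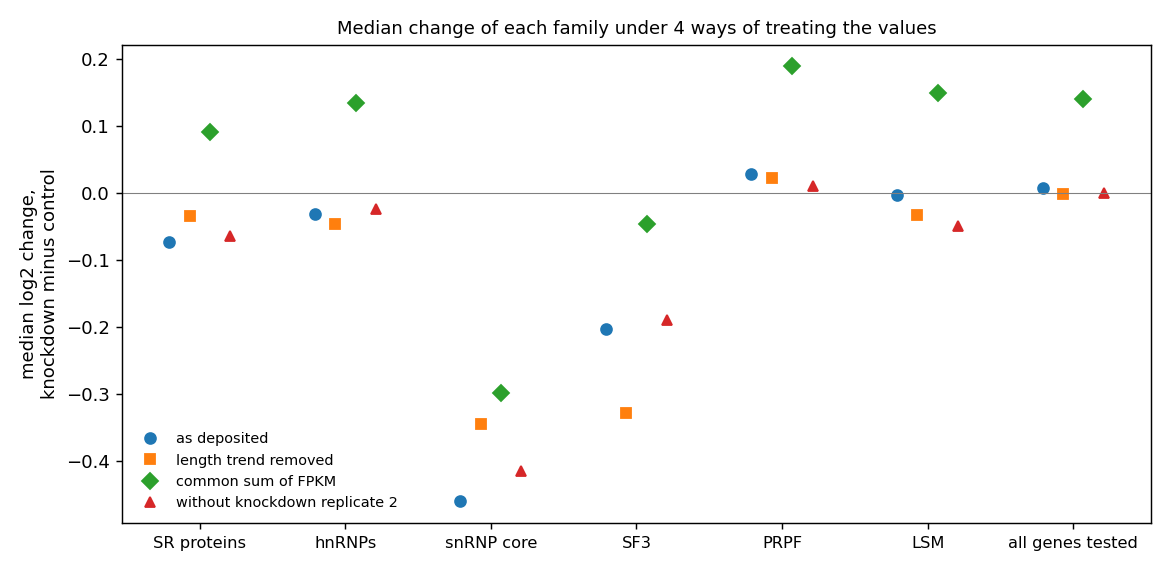
Median log2 change of each family with the deposited scaling, a common sum, the length trend removed and without knockdown replicate 2, beside the median of all genes tested. The snRNP core median lies between -0.46 and -0.30 in these 4 settings, below that of every other family in each.

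Genes that work with these families, taken from 11 lists chosen by function, give the setting. Of 181 list genes tested, 59 rose, 55 fell and 67 did not pass, which is 63.0% called beside 57.4% of all genes tested, with a median of 0.02. In the list of U5 and tri-snRNP proteins outside the PRPF and LSM families 2 of 16 rose and 9 fell. EFTUD2, the U5 GTPase, averaged 9.95 ± 0.307 FPKM in knockdown libraries and 15.3 ± 0.355 FPKM in control libraries (SD, n = 3 each; log2 change -0.58, adjusted p = 1.32e-05), and SART1, which recruits the tri-snRNP, averaged 19.98 ± 2.24 FPKM in knockdown libraries and 30.2 ± 0.743 FPKM in control libraries (log2 change -0.58, adjusted p = 0.000113). Of 12 proteins of the minor spliceosome, which removes a rare class of introns, none rose and 7 fell. SNRNP25 averaged 7.52 ± 1.30 FPKM in knockdown libraries and 14.8 ± 1.55 FPKM in control libraries (log2 change -0.90, adjusted p = 0.0001) and ARMC7 averaged 3.49 ± 0.360 FPKM in knockdown libraries and 5.32 ± 0.525 FPKM in control libraries (log2 change -0.49, adjusted p = 0.000805). Falls thus outnumbered rises in both lists. Their medians were -0.20 and -0.25 with the deposited scaling, beside 0.01 over all genes tested. Under the common sum they were -0.04 and -0.10, beside 0.14 over all genes tested. With the length trend removed they were -0.19 and -0.25, beside -0.001 over all genes tested.

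In the PRP19 complex and its relatives 3 of 21 rose and 9 fell, and HSPA8, an abundant chaperone with many other roles, averaged 116 ± 0.146 FPKM in knockdown libraries and 297 ± 0.715 FPKM in control libraries (log2 change -1.35, adjusted p = 1.69e-08), while XAB2 averaged 13.2 ± 1.17 FPKM in knockdown libraries and 21.00 ± 0.304 FPKM in control libraries (log2 change -0.63, adjusted p = 2.63e-05). Among 26 SR-related proteins and partners 6 rose and 9 fell. SNRNP70, the U1 protein that SR proteins contact, averaged 27.8 ± 2.04 FPKM in knockdown libraries and 50.1 ± 0.760 FPKM in control libraries (log2 change -0.83, adjusted p = 2.37e-06), and SCAF8 rose with 10.8 ± 0.509 FPKM in knockdown libraries and 5.88 ± 0.837 FPKM in control libraries (log2 change 0.78, adjusted p = 4.48e-05). Of 9 kinases and importers of SR proteins 4 rose and 3 fell, CLK1 (log2 change -0.41, adjusted p = 0.000176) and CLK2 (log2 change -0.48, adjusted p = 0.000497) among those lower in knockdown. Of 16 genes of the SMN complex, which loads Sm rings, and of Sm methylation, 4 rose and 5 fell. GEMIN6 fell (log2 change -0.44, adjusted p = 0.00254) and PRMT5, the methyltransferase that modifies Sm proteins, rose (log2 change 0.40, adjusted p = 0.00061).

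For factors that recognise the 3′ splice site or partner U2, 5 of 15 rose and 5 fell, with RBM10 lower in knockdown (log2 change -0.47, adjusted p = 3.51e-05) and the helicase DHX15 higher (log2 change 0.37, adjusted p = 0.000161). Of 14 spliceosomal helicases and step 2 factors 5 rose, DHX15 and SLU7 (log2 change 0.37, adjusted p = 0.000331) the most, and 2 fell. Other lists leaned to rises. Of 15 exon junction complex and nonsense-mediated decay genes 9 rose and 2 fell, and the kinase SMG1 (log2 change 0.64, adjusted p = 0.000338) and the nuclease SMG6 (log2 change 0.59, adjusted p = 0.000305) rose most. Among 33 tissue-regulated splicing regulators 19 rose and 6 fell. ESRP2, an epithelial splicing regulator, averaged 13.4 ± 0.695 FPKM in knockdown libraries and 7.84 ± 0.477 FPKM in control libraries (log2 change 0.70, adjusted p = 1.41e-05), and MBNL3 averaged 1.94 ± 0.341 FPKM in knockdown libraries and 0.922 ± 0.0843 FPKM in control libraries (log2 change 0.61, adjusted p = 0.00038). None of 11 decapping and decay partners of the cytoplasmic LSM ring fell and 6 rose, with XRN1, the 5′ to 3′ exonuclease, at 8.01 ± 1.37 FPKM in knockdown libraries and 4.26 ± 0.243 FPKM in control libraries (log2 change 0.77, adjusted p = 0.000136) and CNOT1 at 25.02 ± 2.43 FPKM in knockdown libraries and 15.1 ± 0.228 FPKM in control libraries (log2 change 0.69, adjusted p = 1.95e-05).

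With the deposited scaling the medians of the PRP19, SR-related and SMN lists were -0.07, -0.02 and -0.11, beside 0.01 over all genes tested. Under the common sum they turned to 0.08, 0.15 and 0.05, beside 0.14 over all genes tested, so the sign of these 3 medians rests on the scaling. The PRP19 and SMN medians lay below that of all genes under both scalings. With the length trend removed, the PRP19, SR-related and SMN medians were -0.09, -0.12 and 0.02, beside -0.001 over all genes tested. The SMN median then lay above that of all genes.

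Where the genes lie and what shares their sequence limits some of these values. By GENCODE v29 (GRCh38), SNRPG lies on chromosome 2 (70281362 to 70293771, minus strand), SNRPD2 on chromosome 19 (45687454 to 45692569, minus strand), SF3B5 on chromosome 6 (144094881 to 144095573, minus strand), LSM7 on chromosome 19 (2321517 to 2328620, minus strand) and HNRNPH1 on chromosome 5 (179614178 to 179634784, minus strand). Of the 79 genes 30 have at least 1 named pseudogene copy, and 35 overlap an exon of another gene, 29 of them on the opposite strand. Neither the treatment of reads shared between copies nor the use of strand is given in the sources used here, so levels of these genes are uncertain.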

How the data were processed

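RNA was measured in 6 libraries of HaCaT cells, 3 with the IQGAP2 hairpin and 3 controls, which the labels call biological replicates without saying whether they were separate cultures. P-values therefore measure the spread between these samples. Per the labels' protocols, total RNA was extracted with TRIzol and libraries were made with a TruSeq RNA kit. The authors deposited 1 table of FPKM values, by gene and library. HISAT2 2.2.1 and GRCh38 are named per the submitters' processing notes, while counting program, annotation and strand setting are not stated.

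FPKM values of a gene were whole multiples of a common step, from which whole reads were recovered for all 12829 genes (tolerance 0.004 reads). They gave depth, gene length (within 10% of GENCODE v29 for 85.4% of genes, and for 62 of the 79 members) and an alternative test, which called 54 members. Precision is limited by 3 libraries a group, and reads are not independent molecules. Recovery and model were tested on simulated data.

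Members were taken by symbol prefix, and all 79 matched GENCODE v29. Limma 3.58.1 in R 4.3.3 was fitted to log2(FPKM + 1), with a variance trend and group as the only factor, over the 11214 genes averaging 0.5 FPKM or more. Tests were two-sided, adjusted by Benjamini-Hochberg over all of these genes. IQGAP2 lay below the filter and was kept in the fit. No test was made over a family or list. Given in full were, per family, the 3 called members with the largest change and no overlap between groups and the member with the highest mean, and, whatever their p, the Sm ring, LSM1, LSM8, SF3B1, PRPF8 and SRSF1; per list, the 2 called genes with the largest change. Other members were named with fewer statistics, and 1 member is counted but not reported here. The members and lists were chosen with earlier results of these data known. Alternatives were 3 other scalings, 2 pseudocounts, 2 filters, no variance trend, a replicate block, removal of the length trend, recovered reads with voom, and leaving out each library.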

Additional observations from a re-analysis of the deposited data

How the results depend on the processing

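Counts of calls stayed within 1.5 times the reported ones in all 17 alternatives run: 4511 to 6702 genes against 6434, 44 to 54 splicing factor genes against 52, and 94 to 123 list genes against 114. Of the 52 splicing factor genes called, 34 kept call and direction in every alternative run. The IQGAP2 level passed with all libraries (adjusted p = 0.0217, log2 change -0.22) but not without knockdown replicate 3 or any 1 control library, when the log2 change was -0.23 to -0.22 and the adjusted p at most 0.0556. The sign turned for 15 of the 78 genes under the common sum, 4 under quantile normalization and 9 with the length trend removed. Among the genes given in full these were SRSF5 to 0.046, LSM4 to 0.022 and PRPF8 to 0.15 under the common sum; PRPF8 to 0.041 and LSM8 to -0.015 under quantile normalization; LSM8 to -0.14 with the length trend removed; and, with 1 library left out, PRPF8 ranged between -0.038 and 0.015 and PRPF19 between -0.010 and 0.065, turning without knockdown replicate 1 and, for PRPF8, also without control replicate 3. The cause was not tested. PRPF calls numbered 10 both under the common sum and with the length trend removed, against 6. The labels do not say that replicate numbers pair the libraries. Deviations of same-numbered libraries correlated at -0.067, -0.038 and 0.019, and no library correlated best with its own number. Deviations from a mean of 3 libraries are not independent, so these weak values cannot decide whether libraries were paired. With the replicate block, 6191 genes, 51 splicing factor genes and 113 list genes were called and the IQGAP2 level changed by -0.22. Genes of few reads, such as SNRPN with 8 to 26 reads a library, are limited by depth.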
